A study of Mus musculus with 10 samples.

Results

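The comparison set OP9 mouse stromal cells with a Drosha knockout against OP9 cells with an empty vector, and it used 6 of the 10 samples of the series. The members are the 3 libraries of the group Drosha KO and the 3 libraries of the group Empty vector (genotype WT) that the labels place in batch 2. Both groups were differentiated to adipocytes by 1 µM rosiglitazone, an agonist of the nuclear receptor PPARγ, from confluence to day 10, so the controls carry the same drug treatment. The other 4 samples, of a Dicer1 knockout and its own control in batch 1, did not enter. The labels do not say whether the knockout is 1 clone or a pool, nor whether replicates were separate cultures, so a p-value here reflects how far these libraries spread, which could be technical spread alone.

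Drosha is the nuclear RNase III of the Microprocessor complex. With its RNA-binding partner Dgcr8 it cuts hairpins out of primary microRNA transcripts, and Dicer1 then trims the released hairpins in the cytoplasm to mature microRNAs, which lower the level and translation of messenger RNAs that hold a match to their seed. OP9 is a bone marrow stromal line from a mouse without functional macrophage colony-stimulating factor, and is used both to support blood cell development and as a preadipocyte that forms fat cells within days. The title of the series names miR-204 and miR-15b as the microRNAs through which Drosha acts on fat cell formation.

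The deposited values are TPM, an abundance of transcripts divided by transcript length and scaled to a fixed total per library, so sequencing depth is unknown. Of 55189 genes, 12739 had a TPM of at least 1 in 3 or more of the 6 libraries and were tested, and between 12559 and 12917 genes per library reached that level. Changes are differences of log2(TPM + 1), knockout minus empty vector, given ± SE and tested with limma and Benjamini-Hochberg adjustment over all tested genes, called at an adjusted p under 0.05. This scale understates the change of genes with few TPM. Libraries of 1 group correlated at 0.989 to 0.990 and libraries of different groups at 0.974 to 0.976. Empty vector replicate 3 stood apart in ribosomal RNA: Rn18s read 336, 306 and 3197 TPM in the control libraries against 351, 302 and 373 TPM in the knockout. Together with Mir6236, whose row followed the same pattern, and 3 unnamed rows, it held 3.34% of TPM in that library and 0.246% to 0.359% in the others. The labelled tissue was checked by its markers. Pdgfra held 218, 215 and 228 TPM in the empty vector and 216, 211 and 243 TPM in the knockout, and Cxcl12 between 4889.7 and 5389 TPM, while Thy1, Eng and Nt5e, surface markers of mesenchymal stem cells, lay between 0.169 and 1.07 TPM.

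Drosha RNA was lower in all knockout libraries but not absent. The empty vector libraries held 38.9, 39.6 and 38.6 TPM and the knockout libraries 14.8, 13.7 and 15.6 TPM, a change of -1.35 ± 0.05 (adjusted p = 9.72e-06). Dgcr8, whose messenger RNA itself carries hairpins that the Microprocessor is known to cut, stood at 19.7, 20.9 and 16.0 TPM and rose to 57.4, 52.5 and 64.4 TPM (1.58 ± 0.11, adjusted p = 6.00e-05). Tnrc6a, a scaffold of the silencing complex, stood at 16.5, 16.7 and 18.1 TPM and rose to 40.0, 41.1 and 48.9 TPM (1.29 ± 0.08). None of these genes had overlapping groups. Such separation was common: over all tested genes, the knockout libraries all lay above the empty vector in 44.1% and all below in 10.7%. Of 27 tested genes of microRNA processing and silencing, 15 were called higher and 1, Drosha, lower. After median-ratio scaling, which sets the typical gene to no change, 8 were called higher and 1 lower. In all tested genes 35.3% were called higher and 7.42% lower.

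Across all genes, 4502 were called higher and 945 lower in the knockout. This split depends on the scale. The median change over all tested genes was 0.13, and median-ratio scaling moved it to -0.00, with 2297 genes (18.0%) called higher and 2083 (16.4%) lower. All of these 2297 genes were also called higher on the deposited scale, and all of the 945 were also called lower after scaling. Most changes were small: the median change was 0.33 among genes called higher and -0.32 among genes called lower, and 247 rose and 35 fell by at least 1 on the log2 scale (175 and 50 after scaling). The most abundant RNAs went the other way from the rest. Of the 100 genes with the highest mean TPM, 14 were called higher and 58 lower (5 and 68 after scaling), with a median change of -0.24. The 100 highest genes of each library held 35.7%, 36.7% and 36.1% of the TPM without the knockout and 32.1%, 32.1% and 31.5% in the knockout libraries. Because TPM sums to a fixed total, lower shares of abundant RNAs raise the values of all others, so lists below are given under both scalings. Each count of a list is to be read beside the shares over all tested genes, 35.3% higher and 7.42% lower (18.0% and 16.4% after scaling).

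**Figure D1:**
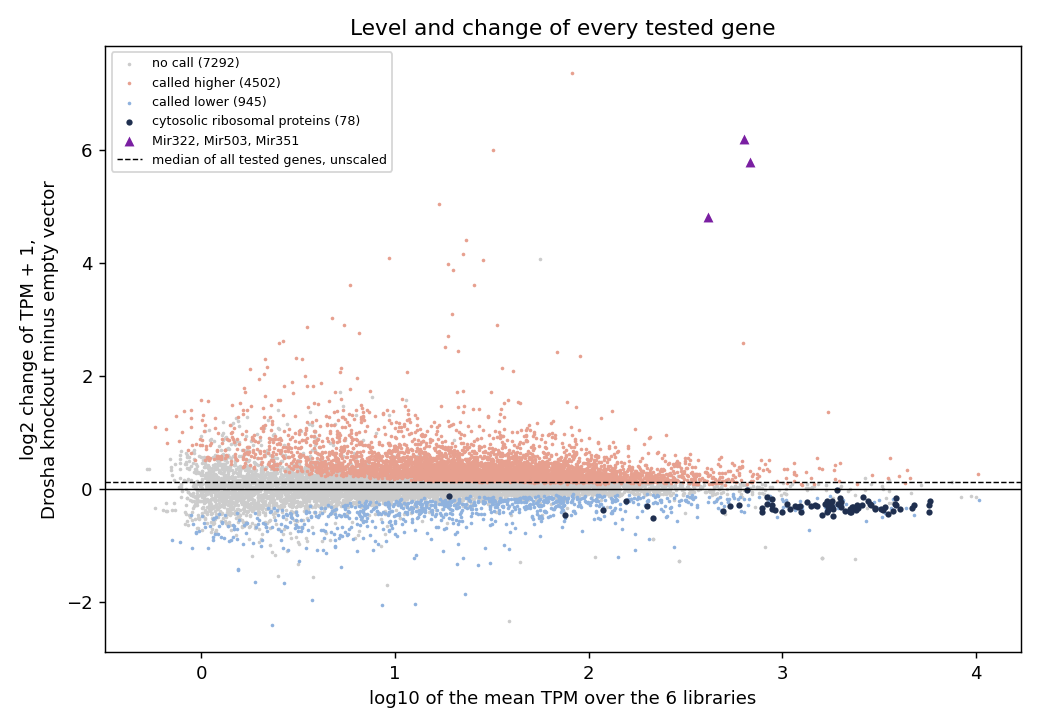
Each point is a tested gene, with the log10 of its mean TPM over the 6 libraries on the x axis and its log2 change in Drosha knockout on the y axis. The 78 cytosolic ribosomal protein genes lie together at high level and below 0, and the rows Mir322, Mir503 and Mir351 lie near the top at high level.

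Rows of hairpin genes were among the largest rises. Messenger RNA was captured for sequencing, so these rows do not measure mature microRNAs. A hairpin row is also short, so few reads give a high TPM. Mir322 held 18.3, 15.5 and 14.0 TPM without and 1039.7, 1207 and 1497 TPM with the knockout (6.20 ± 0.14, adjusted p = 9.19e-07). Mir503 stood at 34.4, 26.3 and 12.9 TPM against 1142, 1258 and 1606 TPM (5.80 ± 0.32) and Mir351 at 48.7, 22.9 and 17.3 TPM against 804, 639 and 944 TPM (4.82 ± 0.34). The 3 lie close together on chromosome X, and every knockout library lay above every empty vector library. For Mir29a the empty vector libraries were all listed at 0 and the knockout libraries held 146, 162 and 186 TPM, and for Mir29b-1 the same libraries held 0 and 35.2, 20.7 and 45.1 TPM. Mature sequences of leading rows are shown with those of miR-15b, miR-125b and miR-204, whose own rows did not pass the filter. Several fall into families by seed, the stretch from base 2 to 8 that pairs with targets, here in capitals (5′ to 3′, RefSeq, GRCm38.p6). The product of Mir322 shares its seed with miR-15b, which the series title names, and miR-503 differs from them in the last seed base.
miR-322-5p: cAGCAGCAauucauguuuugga
miR-15b-5p: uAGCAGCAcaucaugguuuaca
miR-503-5p: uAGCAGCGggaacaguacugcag
miR-351-5p: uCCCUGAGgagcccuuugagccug
miR-125b-5p: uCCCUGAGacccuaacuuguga
miR-29a-3p: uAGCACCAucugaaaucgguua
miR-542-3p: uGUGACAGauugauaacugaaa
miR-298-5p: gGCAGAGGagggcuguucuuccc
miR-204-5p: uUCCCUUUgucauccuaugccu

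Of 1187 microRNA gene rows, 1051 were at 0 in all 6 libraries and 43 were tested, of which 24 were called higher (23 after scaling) and 1 lower. Of the tested rows, 11 were at 0 in all empty vector libraries and could pass the filter only through the knockout, so the share called is no result about microRNA genes. Among neighbours of Mir322 on chromosome X, Mir542 stood higher, at 2.27, 0 and 3.19 TPM against 38.3, 34.4 and 56.5 TPM (4.17 ± 0.50). Mir450-2 was listed at 0 against 5.29, 5.58 and 4.29 TPM. Mir450b, at 2.56, 1.58 and 0 TPM against 6.54, 0 and 5.24 TPM, had overlapping groups and no call (0.79 ± 0.81, limma adjusted p = 0.469). On chromosome 18, Mir143 stood at 8.65, 2.02 and 4.82 TPM against 39.9, 24.6 and 29.0 TPM (2.51 ± 0.39, adjusted p = 0.00199) and Mir145a at 7.68, 3.61 and 1.89 TPM against 44.7, 17.4 and 37.4 TPM. Rows at 0 in every control library also included Mir296, with 11.1, 16.2 and 7.72 TPM in the knockout, Mir298, with 17.0, 7.53 and 31.5 TPM, and Mirlet7g, with 1.36, 1.40 and 2.14 TPM. The row called lower was Mir1932, at 3.84, 1.32 and 2.83 TPM against 1.31, 0 and 0 TPM (-1.41 ± 0.40, adjusted p = 0.0260), a call lost without empty vector replicate 1 or 3 or knockout replicate 2 or 3 (adjusted p = 0.0737 to 0.0861). Mir7-1 at 4.85, 13.0 and 10.4 TPM against 10.4, 8.87 and 15.1 TPM, Mir186 at 9.84, 7.02 and 9.19 TPM against 5.02, 9.39 and 7.52 TPM and Mir199a-1 at 7.68, 5.41 and 1.89 TPM against 3.44, 3.87 and 4.16 TPM had overlapping groups and no call. Without Mir6236, all microRNA rows together held between 122 and 236 TPM without the knockout and between 3534 and 4673 TPM in the knockout libraries. Mir322, Mir503 and Mir351 made up 36.2% to 43.0% of that sum in the empty vector and 84.5% to 87.3% in the knockout.

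Several long noncoding transcripts from which microRNAs are cut were higher too. Of 26 tested noncoding transcripts that hold a microRNA gene on their strand in the RefSeq or GENCODE annotation, 20 were called higher and 1 lower, with the same counts after scaling and a median change of 1.34 (1.22 after scaling). In all tested genes 35.3% were called higher and 7.42% lower (18.0% and 16.4% after scaling). Hosts low in every control library could pass the filter only through the knockout, so the share called is no result about noncoding hosts as a class. Of 438 protein-coding hosts, 191 were called higher and 25 lower (106 and 66 after scaling), with a median of 0.17 (0.04), close to that of all genes. C430049B03Rik, whose RefSeq span holds Mir322, Mir351 and Mir503, stood at 169.8, 183 and 176 TPM and rose to 1129, 1091 and 1000.2 TPM (2.60 ± 0.05, adjusted p = 4.93e-07). Lncppara, which holds Mirlet7b and Mirlet7c-2, rose from 2.55, 3.06 and 1.40 TPM to 73.2, 45.8 and 44.8 TPM (4.06 ± 0.24), and Mir22hg from 19.9, 21.8 and 20.5 TPM to 121, 115 and 114 TPM (2.44 ± 0.05). Every one of these groups was apart, and knockout replicate 1 was the highest for Lncppara.

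Other noncoding hosts covered several further families. E130102H24Rik, which holds Mir101a, stood at 1.64, 1.09 and 1.32 TPM and rose to 37.8, 37.1 and 33.2 TPM, and AL805899.1, which holds Mir31, at 2.77, 3.89 and 2.42 TPM and rose to 47.4, 47.8 and 48.8 TPM. Dleu2, the host of Mir15a and Mir16-1, rose from 14.7, 14.9 and 14.5 TPM to 58.4, 75.9 and 65.2 TPM (2.10 ± 0.09). H19, an imprinted RNA that holds Mir675 in an exon, rose from 43.6, 46.3 and 46.7 TPM to 124, 129.9 and 126 TPM (1.46 ± 0.04, adjusted p = 1.86e-06). None of these 4 had overlapping groups. Carmn, the host of Mir143 and Mir145a, rose by 2.14 ± 0.22, Gm20732 (Mir30d) by 2.30 ± 0.16 and Mir100hg (Mir100, Mir125b-1, Mirlet7a-2) by 2.14 ± 0.18. Mir100hg overlaps the models Gm49317 and Gm28119, so reads of these 3 cannot be told apart. Gm27019, a gene model at Mir29b-1 chosen after its values were seen, was listed at 0 in every control library and held 73.4, 63.6 and 55.0 TPM in the knockout. The host called lower was Gm15987 (-0.29 ± 0.09), whose call was lost when any single library was left out (adjusted p = 0.0585 to 0.120). Since the kit is not stated to keep strand, reads of a host and of the hairpin row within it may also be shared between the 2 rows.

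Among protein-coding hosts, Smc4, a condensin subunit with Mir15b and Mir16-2 in an intron, rose from 35.2, 32.4 and 33.2 TPM to 47.4, 49.6 and 54.4 TPM (0.57 ± 0.06, adjusted p = 0.000353). Smc4 is also a gene of mitosis, a group described below. Trpm3, the ion channel gene that holds Mir204, stood at 5.32, 5.09 and 5.12 TPM against 4.05, 4.50 and 4.47 TPM; its groups did not overlap, but the change of -0.21 ± 0.08 missed the threshold (adjusted p = 0.0716) and passed after scaling (-0.33, adjusted p = 0.0156). Srebf2, the regulator of cholesterol synthesis with Mir33 in an intron, rose by 0.58 ± 0.04, and Vmp1, whose span holds Mir21a, by 0.40 ± 0.07. Egfl7 (Mir126a) and Col27a1 (Mir455) fell by 0.44 and 0.73 on the log2 scale, the call of Egfl7 being lost without empty vector replicate 2 or knockout replicate 1.

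**Figure D2:**
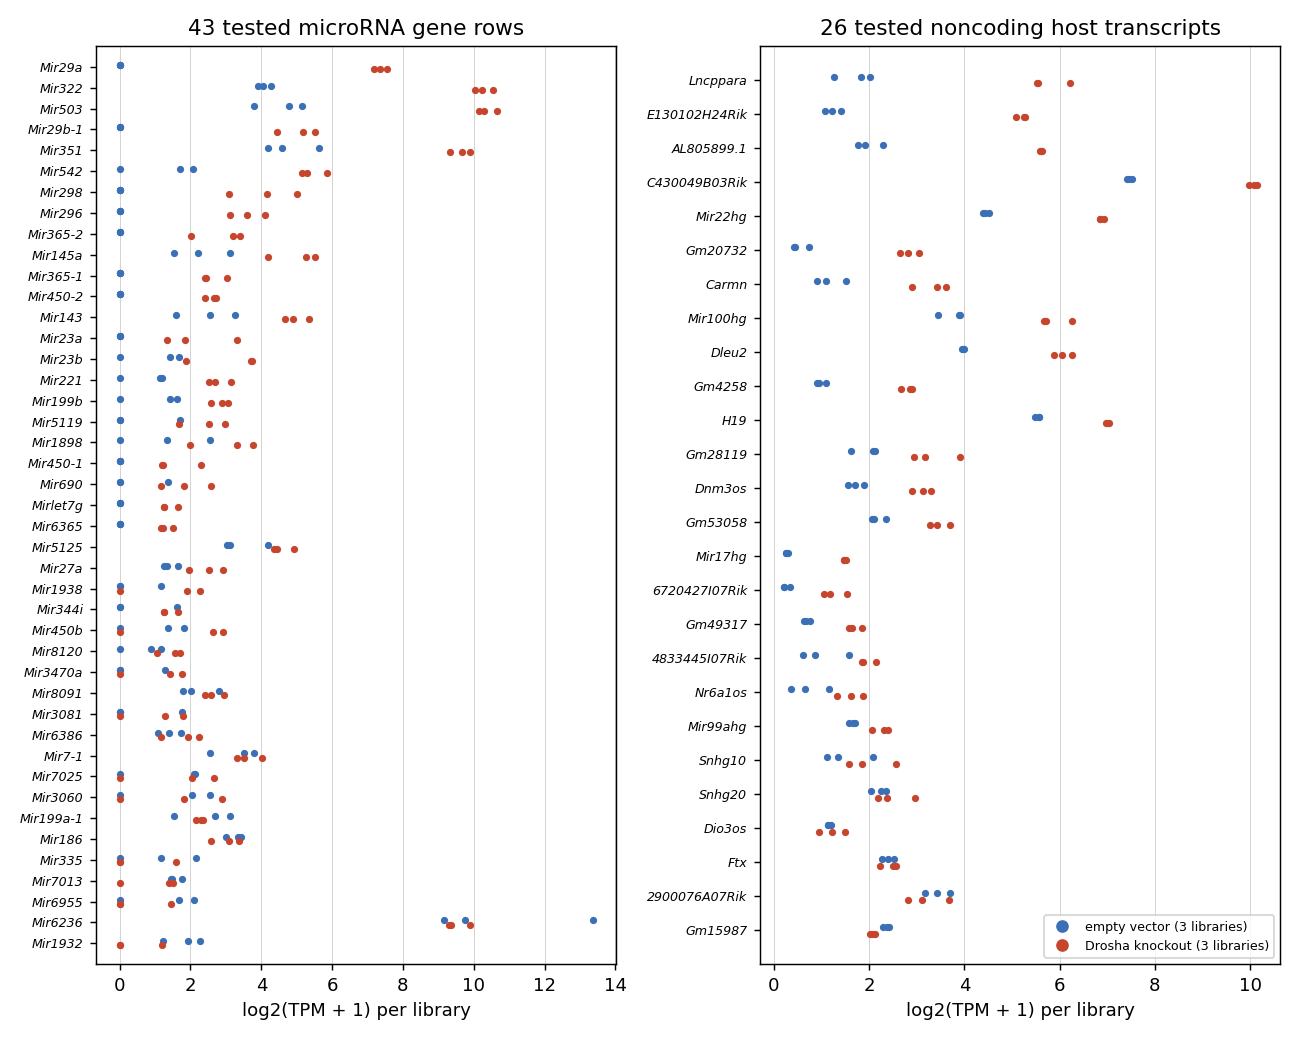
Points give log2(TPM + 1) of each of the 3 empty vector (blue) and 3 Drosha knockout (red) libraries for the 43 tested microRNA rows and the 26 tested noncoding hosts, ordered by change. At the top of both panels the red points lie to the right of the blue ones without overlap, as for Mir29a, which is at 0 in the empty vector.

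Among other named genes, the rises were larger than the falls. Adm, which encodes the vasodilator peptide adrenomedullin, rose from 27.6, 27.7 and 30.4 TPM to 146, 160.3 and 149 TPM (2.37 ± 0.05, adjusted p = 9.19e-07). Lncpint, a long noncoding RNA known as a p53 target, rose from 1.10, 2.35 and 1.64 TPM to 39.7, 32.8 and 41.9 TPM (3.88 ± 0.17). In both the lowest knockout library was more than 4 times the highest empty vector library. Galnt7, an N-acetylgalactosamine transferase of mucin-type O-glycosylation, rose from 4.04, 3.71 and 3.71 TPM to 18.1, 19.1 and 20.7 TPM, and Gxylt1, a xylosyltransferase acting on Notch, from 9.51, 10.0 and 9.71 TPM to 36.3, 32.7 and 35.9 TPM. Ankrd1, a classic target of the coactivator YAP, rose from 0.949, 0.468 and 0.615 TPM to 5.42, 5.56 and 4.58 TPM. The 15 largest rises also included Ly6g2 (2.90), Fos (1.77), Parm1 (1.74), Hmga2 and the noncoding hosts given above, with no overlap of groups in any, which the rule for naming required.

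Hmga2 encodes a chromatin protein of embryonic cells that is a textbook target of let-7. It rose from 5.18, 6.54 and 5.86 TPM to 36.9, 37.5 and 35.2 TPM (2.46 ± 0.08, adjusted p = 4.29e-06). Its longest GENCODE 3′ UTR, of 3014 bases on chromosome 10 (GRCm38), held the let-7 seed match CTACCTC 4 times. At least 1 such match stood in 10.3% of the 10983 tested genes with an annotated 3′ UTR, whose median length was 1174 bases. The Hmga2 matches are shown with 15 bases before and 1 after, the match in capitals, and the seed they pair with is that of let-7b.
let-7b-5p: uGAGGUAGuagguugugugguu
Hmga2 match 1: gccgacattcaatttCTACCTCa
Hmga2 match 2: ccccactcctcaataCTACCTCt
Hmga2 match 3: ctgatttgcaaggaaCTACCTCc
Hmga2 match 4: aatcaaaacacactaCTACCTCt
Of the 15 largest rises, 8 had an annotated 3′ UTR, with a median length of 1978 bases against 1174 bases over all tested genes with one. The let-7 match stood in 3 of these 8, since Gxylt1 and Parm1 also held it, once each (attcagacttcccttCTACCTCa in Gxylt1). The matches of miR-503 (CGCTGCT, in 4.93% of all tested genes with a 3′ UTR), miR-351 (CTCAGGG, 15.4%), miR-204 (AAAGGGA, 15.6%) and miR-30a (TGTTTAC) each stood in 3 of the 8 as well. Those of miR-29a (TGGTGCT, 15.9%) and miR-22 (GGCAGCT, 15.6%) stood in 1 each and that of miR-15b (TGCTGCT, 24.9%) in 0. Galnt7 held 2 matches to the miR-30a seed (atcatctgcagtgacTGTTTACa and accttaaactctagaTGTTTACa), a motif present in 16.3% of the tested genes with a 3′ UTR. Of the 15 largest falls, 14 had an annotated 3′ UTR, with a median length of only 261 bases, and 0 of these held the let-7 match. Counts of matches in rises and falls are therefore not comparable without regard to length. A match is a description of sequence and not evidence of pairing.

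The largest falls included fat cell products and enzymes of lipid mediators. Retn, which encodes the adipokine resistin, stood at 20.3, 23.4 and 19.02 TPM and fell to 4.61, 3.17 and 5.50 TPM (-2.03 ± 0.16, adjusted p = 0.000109). Apoc1, an apolipoprotein, fell from 12.3, 14.2 and 16.7 TPM to 3.29, 2.36 and 2.46 TPM (-2.05 ± 0.14), and Agt, which encodes angiotensinogen, from 205, 190.2 and 195 TPM to 88.2, 83.8 and 83.1 TPM (-1.20 ± 0.04, adjusted p = 5.17e-06). Mmp13, the collagenase 3 gene, fell from 38.3, 35.9 and 35.7 TPM to 9.17, 9.43 and 9.41 TPM (-1.86 ± 0.05, adjusted p = 1.77e-06). In each the groups were apart, and for Mmp13 the knockout libraries differed by less than 1 TPM. Ltc4s, which makes leukotriene C4, fell from 10.3, 7.02 and 6.75 TPM to 2.28, 3.01 and 2.06 TPM, and Prxl2b, a prostaglandin F synthase, from 29.6, 29.1 and 32.4 TPM to 10.4, 11.0 and 13.4 TPM. Rbp4, the retinol carrier, fell from 30.3, 31.1 and 33.7 TPM to 12.1, 14.1 and 13.2 TPM, Adig, an adipocyte membrane protein, from 17.1, 18.6 and 18.4 TPM to 7.66, 5.77 and 9.48 TPM, and Aldh1a7, an aldehyde dehydrogenase, from 25.8, 22.3 and 25.0 TPM to 10.9, 10.7 and 10.8 TPM. The others were Drosha itself, Cfd, Wfdc21 (-1.22), Fmod (-1.13), Lrg1 (-1.09) and Esm1 (-1.08).

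**Figure D3:**
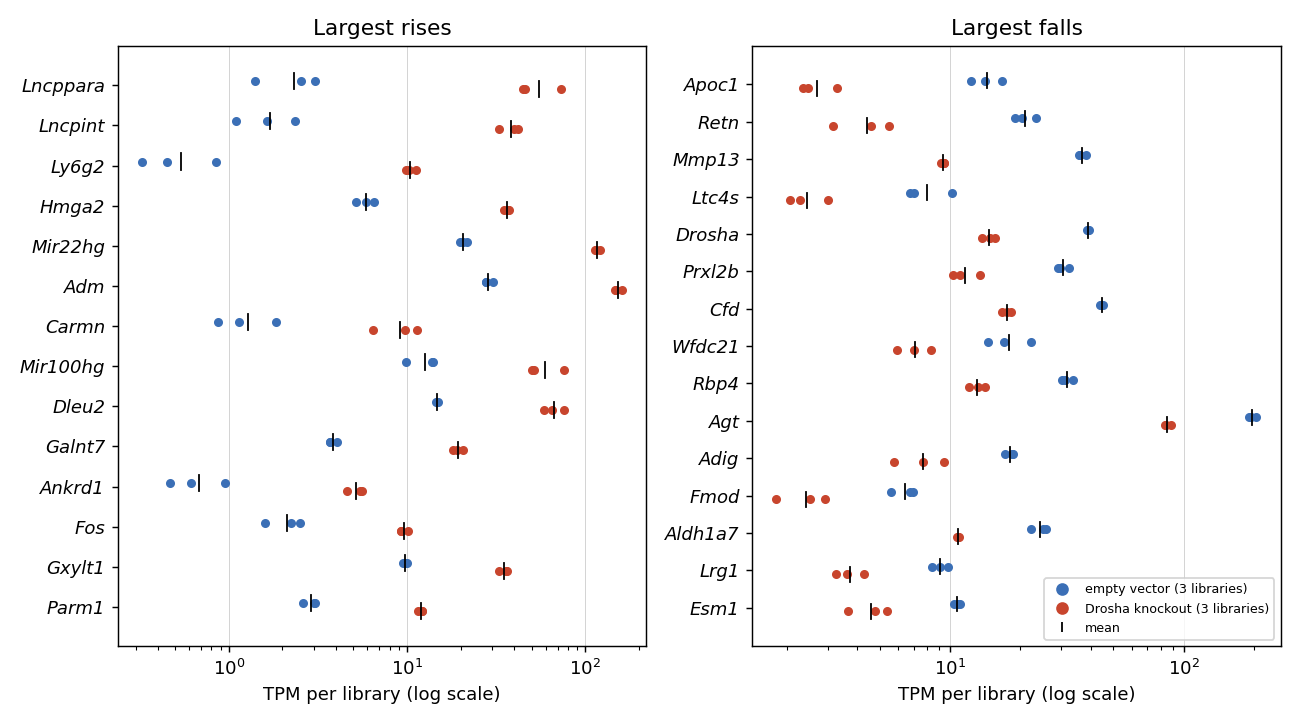
TPM on a log scale in each empty vector (blue) and Drosha knockout (red) library for genes among the 15 largest rises and 15 largest falls, with group means as black ticks. The red and blue points do not overlap in any gene, and Mmp13 stands near 36 TPM in the empty vector and near 9 TPM in the knockout.

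Most markers of mature adipocytes were lower, while their inducer was not. Of 10 markers, 8 were called lower and 1 higher under both scalings, with a median of -0.76. Adipoq, which encodes adiponectin, stood at 231, 239.7 and 233 TPM and fell to 106, 107 and 118 TPM (-1.08 ± 0.05, adjusted p = 1.20e-05), and Cfd, which encodes adipsin, fell from 44.4, 44.0 and 45.4 TPM to 18.3, 16.8 and 17.6 TPM (-1.30 ± 0.05). Fabp4, the fatty acid binding protein, was the marker called higher, at 894, 900.3 and 894 TPM against 1171, 1135 and 1151 TPM (0.36 ± 0.03, adjusted p = 6.65e-05). Pparg, the receptor for rosiglitazone, stood at 134, 133 and 133 TPM against 131, 140.0 and 142 TPM, with overlapping groups and no call (0.05 ± 0.04, adjusted p = 0.354). The summed TPM of the 10 markers differed little, between 2013 and 2021 TPM in the empty vector and between 1947 and 2002 TPM in the knockout. Fabp4 is a large part of this sum, so its rise hides the falls of the 8 markers called lower. In bulk RNA, fewer fat cells and less of an RNA per cell cannot be told apart. Of 11 stromal markers 8 were tested, of which 3 were called higher and 1 lower (3 and 2 after scaling), with 5 higher without empty vector replicate 3. Of 8 macrophage markers 2 were tested (Lyz2 at 19.7, 19.4 and 19.5 TPM against 17.7, 20.8 and 19.2 TPM, no call), Itgam and Tyrobp were at 0, and no endothelial, lymphocyte or epithelial marker passed the filter. Of 3 neuronal markers, Rbfox3 was at 0, Snap25 had no call, and Tubb3, a tubulin, rose from 1.61, 1.71 and 1.04 TPM to 3.01, 3.05 and 2.95 TPM (0.72 ± 0.14, adjusted p = 0.00588), also called after scaling. Of 4 skeletal muscle markers only Acta1 was tested, at 0.720, 0.402 and 0.550 TPM against 1.05, 1.05 and 1.23 TPM with no call.

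Upstream of these markers, 6 of 22 tested adipogenic transcription factors were called higher and 5 lower (3 and 11 after scaling, and between 3 and 6 lower when single libraries were left out, the fewest without empty vector replicate 1 or 3 or knockout replicate 1). Cebpa, a partner of PPARγ, stood at 53.0, 50.1 and 57.9 TPM and fell to 43.8, 44.3 and 43.9 TPM (-0.28 ± 0.05, adjusted p = 0.00557). Nr1h3, the oxysterol receptor LXRα, fell by 0.41 and Klf15 by 0.64 on the log2 scale, while Nr4a1 rose from 12.3, 12.9 and 10.1 TPM to 27.3, 27.0 and 26.6 TPM (1.14 ± 0.09) and the early factor Cebpd rose by 0.70 ± 0.08. Of 17 genes of glucose and fatty acid uptake, 5 were called higher, a share near that of all genes, and 7 lower (4 and 9 after scaling), with 3 higher without knockout replicate 1. Gpd1, which makes glycerol 3-phosphate for triglycerides, fell from 53.2, 51.9 and 52.5 TPM to 23.9, 23.8 and 26.9 TPM (-1.05 ± 0.05, adjusted p = 2.27e-05), and the insulin-responsive glucose transporter Slc2a4 from 2.58, 1.72 and 2.12 TPM to 0.809, 0.375 and 0.890 TPM. Fabp5 rose by 0.40 ± 0.04. Of 4 tested genes of brown and beige fat, 2 were called lower and 1 higher (3 and 1 after scaling), with 0 higher without knockout replicate 1; Tmem26, a beige cell surface marker, fell from 88.6, 88.0 and 89.7 TPM to 58.8, 58.1 and 62.0 TPM (-0.57 ± 0.04), and the β3-adrenergic receptor gene Adrb3 fell from 1.45, 1.60 and 1.28 TPM to 0.409, 0.288 and 0.597 TPM.

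Genes of mitosis were called higher almost throughout, and genes of other cell cycle steps in part. Of 28 tested genes of mitosis and the spindle, 27 were called higher and 0 lower under both scalings, with a median of 1.05 (0.94 after scaling); the other, Cenpf, had an adjusted p of 0.0522. Kif20a, a kinesin of cytokinesis, stood at 5.93, 5.63 and 4.95 TPM and rose to 17.1, 17.6 and 16.5 TPM (1.48 ± 0.07, adjusted p = 2.10e-05). Ube2c, which marks mitotic cyclins for destruction, rose from 15.3, 14.5 and 13.4 TPM to 38.7, 39.2 and 42.2 TPM (1.41 ± 0.06). The summed TPM of the list was 168, 160 and 168 in the empty vector libraries and 372, 386 and 384 in the knockout libraries, so all 3 knockout libraries shared the rise. Of 32 DNA replication genes, 27 were called higher and 0 lower (20 and 0 after scaling), with Mcm5, a subunit of the replicative helicase, rising from 5.80, 7.22 and 5.81 TPM to 16.7, 16.4 and 18.4 TPM and Ccne1, which encodes cyclin E1, from 3.41, 3.14 and 3.21 TPM to 9.25, 9.19 and 8.83 TPM. Among cyclin-dependent kinase inhibitors and RB pathway genes, 17 of 23 were called higher and 0 lower (14 and 0 after scaling). Ccnd2, which encodes cyclin D2, rose from 170.5, 170.4 and 170.3 TPM to 316, 322 and 362 TPM (0.96 ± 0.05, adjusted p = 2.46e-05), and Ccnd3 from 35.3, 33.5 and 36.0 TPM to 68.0, 67.0 and 69.2 TPM (0.94 ± 0.04). Of 19 DNA repair genes, 9 were called higher and 0 lower (4 and 1 after scaling, and between 5 and 7 higher when single libraries were left out, the fewest without empty vector replicate 3 or knockout replicate 1), among them Exo1 (1.31 ± 0.24). The chromatin protein Hmgb2, abundant in dividing cells, rose from 13.5, 13.4 and 12.9 TPM to 37.9, 35.6 and 38.6 TPM (1.43 ± 0.05).

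Ribosomal protein RNAs, which are among the most abundant of the cell, were lower. Of 78 cytosolic ribosomal protein genes, 0 were called higher and 71 lower (76 after scaling). Their median change was -0.30 (-0.45 after scaling and -0.17 after quantile normalization). In 73 of the 78 all knockout libraries lay below all empty vector libraries, against 10.7% of all tested genes. The 78 genes held 17.6%, 17.5% and 17.1% of the TPM without the knockout and 14.2%, 14.4% and 13.7% in the knockout libraries. Of them, 40 were among the 100 highest genes. Rpl36a stood at 2073, 2163 and 2094 TPM and fell to 1558, 1512 and 1495 TPM (-0.47 ± 0.03, adjusted p = 4.89e-05). Rps24 fell from 6262, 6883 and 6379 TPM to 4961, 5023 and 4780.3 TPM (-0.40 ± 0.04). The gene model Gm10275, 1 of several near-identical copies of ribosomal protein genes between which reads can be split, fell from 5488, 5738 and 5334 TPM to 4101, 4098 and 3899.7 TPM. Rps29 (-0.01) and Rpl5 (-0.12), chosen after their values were seen, were among the 7 without a call. Without empty vector replicate 3, the library with the high ribosomal RNA, 70 were called lower and 0 higher.

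Translation factors were called in both directions. Of 31 translation factors, 9 were called higher and 13 lower (1 and 18 after scaling). Eef1a1, the aminoacyl-tRNA carrier and 1 of the most abundant RNAs, stood at 11036, 11282 and 10666 TPM and fell to 9507, 9670.4 and 9846 TPM (-0.18 ± 0.03, adjusted p = 0.00395), and Eef1b2, its exchange factor, fell from 1301, 1299 and 1311 TPM to 1043, 1048 and 951 TPM (-0.36 ± 0.04). Eif5, which acts in start codon selection, rose from 87.8, 91.2 and 86.5 TPM to 113, 106 and 115 TPM (0.32 ± 0.04). Of 31 tested long noncoding RNAs in the list, 12 were called higher, a share near that of all genes, and 7 lower (11 and 8). The 3 largest called falls were in snoRNA hosts. Gas5, a snoRNA host that like ribosomal protein genes is known to begin with a pyrimidine tract, fell from 1658, 1766 and 1726 TPM to 1065, 1074 and 979 TPM (-0.72 ± 0.04, adjusted p = 3.82e-05). Snhg8 and Snhg1, other snoRNA hosts, fell by 0.49 and 0.49 on the log2 scale, from 303, 291 and 281 TPM to 205, 208 and 209.9 TPM for Snhg1. Mitochondrial ribosome and import genes had 6 of 25 called higher and 1 lower (1 and 4 after scaling), a share higher below that of all genes, and 2 were higher without empty vector replicate 3.

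**Figure D4:**
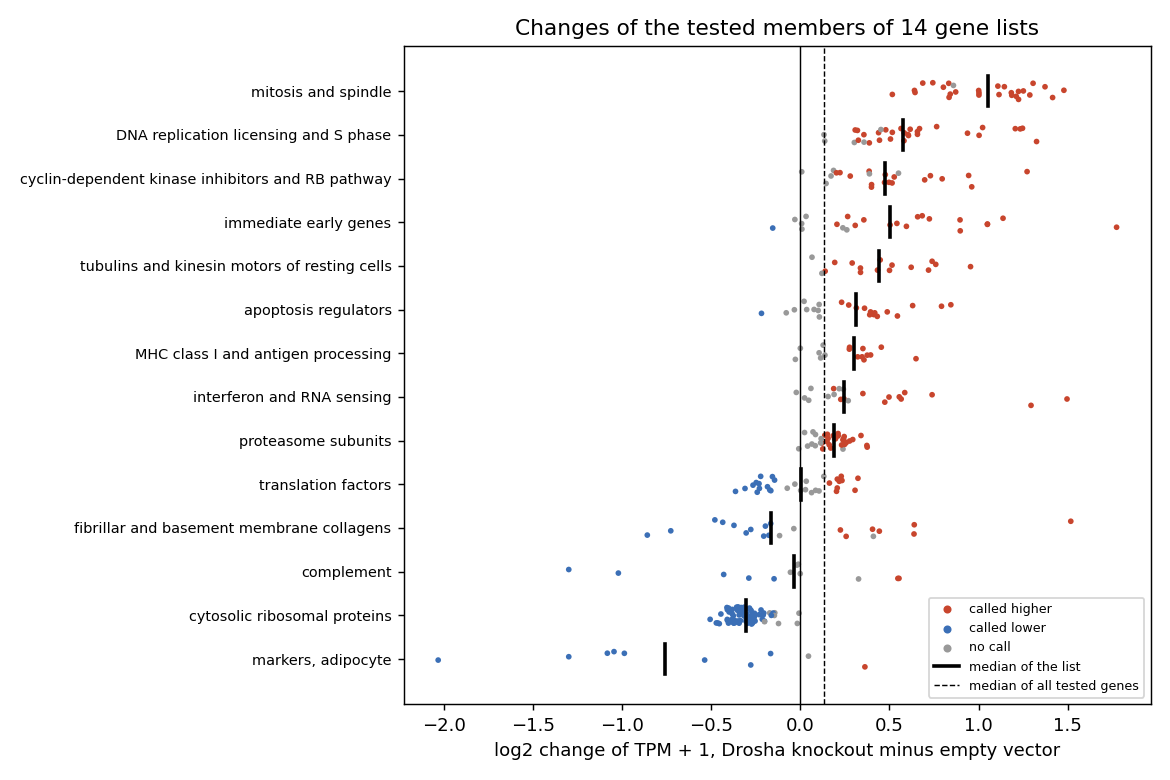
Each point is the log2 change of a tested member of 1 of 14 gene lists, red where called higher, blue where called lower and grey with no call, with the median of the list as a black bar and that of all tested genes as a dashed line. Mitosis genes lie to the right of the dashed line in every case, ribosomal protein genes to the left of 0, and collagens and translation factors on both sides.

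Several large housekeeping groups had fewer genes called higher after scaling, as did all tested genes (35.3% before and 18.0% after). No gene was called higher only after scaling, so these counts could not rise. Proteasome subunits had 26 of 36 called higher and 0 lower, but 6 and 2 after scaling, with a median of 0.19 (0.04 after scaling). Splicing factors had 22 of 36 and 0 (5 and 2), and secretory pathway genes 20 of 33 and 2 (9 and 8), with 1 lower without empty vector replicate 1 or 2 or knockout replicate 1. After scaling, the shares higher of proteasome subunits and splicing factors lay below the 18.0% of all genes. Psmc1, an ATPase of the proteasome cap, rose from 117, 119 and 108 TPM to 147, 150.5 and 149 TPM (0.37 ± 0.04, 0.23 after scaling). Lysosomal genes had 26 of 37 called higher and 1 lower (14 and 6), with 2 lower without knockout replicate 2. Gusb, the lysosomal β-glucuronidase, rose from 45.3, 43.6 and 43.4 TPM to 70.9, 74.9 and 77.4 TPM (0.74 ± 0.04, adjusted p = 3.31e-05), Npc1, a cholesterol exporter, by 0.58 ± 0.06, and the proton pump subunit Atp6v1a by 0.57 ± 0.04, while the cathepsin Ctsz fell by 0.20 on the log2 scale. Heat shock chaperones had 10 of 20 higher and 1 lower (5 and 7; 2 lower without knockout replicate 3), with Cryab (0.47) and Hsp90aa1 (0.42) higher and the mitochondrial cochaperone Hspe1 (-0.34) lower. Of 22 autophagy genes, 10 were higher and 3 lower (3 and 5), with 6 higher without empty vector replicate 2 and 1 lower without empty vector replicate 1 or knockout replicate 2 or 3; Atg12 rose from 18.6, 18.8 and 17.4 TPM to 32.1, 31.5 and 33.0 TPM.

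Genes of the extracellular matrix were called in both directions. Of 21 collagen genes, 7 were called higher and 11 lower (5 and 11 after scaling). The share higher was near the 35.3% of all genes, and the share lower was above their 7.42%. Col4a2 and Col4a5, basement membrane chains, rose from 159, 148 and 166 TPM to 239, 240.2 and 259 TPM (0.64 ± 0.05) and from 49.2, 46.5 and 48.1 TPM to 76.6, 72.6 and 76.1 TPM (0.64 ± 0.04, adjusted p = 4.16e-05). Col15a1 fell from 9.41, 8.98 and 8.94 TPM to 3.99, 4.66 and 5.13 TPM (-0.86 ± 0.09) and Col16a1 from 68.9, 67.0 and 62.4 TPM to 44.8, 46.2 and 50.4 TPM (-0.48 ± 0.06). The groups of these 4 genes did not overlap. Of 17 collagen-modifying enzymes, 11 were called higher and 2 lower (7 and 4), with 1 lower when any library but empty vector replicate 2 was left out. Lox, which crosslinks collagen, rose from 1225, 1158 and 1289.9 TPM to 1806, 1738 and 1824 TPM (0.55 ± 0.04, adjusted p = 0.000110), and Plod2, a lysyl hydroxylase, from 219, 217 and 224 TPM to 329, 332 and 346 TPM. Matrix proteases and their inhibitors had 9 of 20 higher and 5 lower (8 and 9). Plau (urokinase) rose from 32.5, 31.8 and 32.1 TPM to 60.8, 63.6 and 63.9 TPM (0.94 ± 0.04) and its receptor Plaur from 15.3, 15.1 and 13.7 TPM to 28.1, 28.1 and 29.4 TPM (0.91 ± 0.06), while Mmp9, a gelatinase, fell from 23.6, 22.4 and 21.6 TPM to 13.2, 13.3 and 13.7 TPM (-0.71 ± 0.05). Among matrix glycoproteins and proteoglycans, 10 of 25 were higher, a share near that of all genes, and 6 lower (8 and 8). Thbs1 (0.80) and Nid2 (0.56) were higher and the leucine-rich proteoglycans Fmod (-1.13) and Prelp (-0.61) lower.

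Genes of cell shape were called higher more often than lower, as were all tested genes (35.3% higher and 7.42% lower). Adhesion genes were called equally often in both directions. Of 23 targets of YAP and TEAD, 15 were called higher and 3 lower (10 and 4 after scaling). Ccn2, which encodes connective tissue growth factor, stood at 19.2, 17.6 and 19.1 TPM and rose to 53.8, 53.5 and 47.0 TPM (1.42 ± 0.07, adjusted p = 1.43e-05), and Tead4 rose by 1.18 ± 0.12, while Gadd45a fell from 78.9, 73.8 and 75.8 TPM to 52.1, 55.9 and 57.3 TPM. Actg1, the cytoplasmic γ-actin, rose from 2971, 2903 and 2871 TPM to 4139, 4329.8 and 4299.6 TPM (0.55 ± 0.03, adjusted p = 2.99e-05), among the 8 largest gains in mean TPM. Actin and contractile genes had 17 of 29 higher and 2 lower (9 and 5), and tubulins with related motors 14 of 16 and 0 (12 and 0); Stmn1, which binds free tubulin, rose from 40.0, 45.9 and 39.5 TPM to 80.2, 80.1 and 84.9 TPM (0.95 ± 0.06). Of 30 integrins and adhesion genes, 12 were called each way (8 and 13). On the deposited scale the share higher was near that of all genes and the share lower was above it. Itga3 rose from 9.80, 8.49 and 9.77 TPM to 18.6, 18.3 and 20.4 TPM and Cd151, its tetraspanin partner, from 177, 171 and 180.0 TPM to 279, 273 and 277 TPM, whereas Itga6 fell from 7.22, 7.26 and 7.74 TPM to 4.33, 3.38 and 4.97 TPM and another tetraspanin, Cd9, from 350.4, 344 and 333 TPM to 235, 232 and 227 TPM (-0.56 ± 0.03, adjusted p = 2.68e-05).

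Signalling genes moved in part. In the TGF-β and BMP pathway 19 of 31 were called higher and 2 lower (13 and 4 after scaling); the receptors Tgfbr3 (0.68 ± 0.06) and Tgfbr1 (0.53 ± 0.07) rose, and the ligand Tgfb1 fell from 30.9, 28.8 and 28.2 TPM to 23.2, 22.3 and 22.7 TPM (-0.35 ± 0.05). Immediate early genes had 16 of 23 higher and 1 lower (14 and 1), with a median of 0.50. Fos, a subunit of AP-1, rose from 2.49, 2.24 and 1.60 TPM to 10.1, 9.28 and 9.30 TPM (1.77 ± 0.12, adjusted p = 6.15e-05) and Ier2 from 29.6, 30.1 and 26.2 TPM to 57.1, 64.9 and 59.1 TPM, and the member called lower was Jun (-0.15 ± 0.05), a call lost when any library but knockout replicate 2 was left out (adjusted p = 0.05003 to 0.1112). Growth factors and receptor tyrosine kinases had 15 of 29 higher and 3 lower (10 and 8): Hbegf, an EGF receptor ligand, rose from 0.726, 0.689 and 0.845 TPM to 4.45, 3.83 and 4.41 TPM (1.58 ± 0.12), and Igf2 fell from 63.8, 63.0 and 76.0 TPM to 46.8, 47.4 and 46.6 TPM (-0.51 ± 0.07). Wnt pathway genes had 9 of 18 higher and 4 lower (6 and 8), the latter count falling to 1 without empty vector replicate 1 and to 2 without empty vector replicate 2 or 3 or knockout replicate 1, Notch genes 5 of 10 and 0 (3 and 1) and Hedgehog genes 1 of 7 and 0 (1 and 2). The Notch sheddase Adam10 rose from 43.1, 44.4 and 44.3 TPM to 79.7, 82.8 and 91.0 TPM (0.93 ± 0.05, adjusted p = 2.99e-05). Axon guidance genes had 11 of 28 higher, a share near that of all genes, and 6 lower (5 and 8). There were 7 higher without empty vector replicate 2. Sema3f rose from 45.9, 44.5 and 44.6 TPM to 84.1, 91.5 and 89.7 TPM and Robo1 fell from 9.57, 9.97 and 10.1 TPM to 5.86, 5.68 and 5.96 TPM. Of 16 circadian clock genes, 10 were higher and 1 lower (8 and 2), with Per2 rising from 3.50, 3.67 and 3.65 TPM to 8.06, 7.61 and 8.20 TPM (0.96 ± 0.07) and Bhlhe40 falling by 0.44 on the log2 scale.

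Immune genes divided by system. Of 12 complement genes, 2 were called higher and 5 lower (1 and 7 after scaling). The count higher was 0 without empty vector replicate 1 or knockout replicate 3 and 1 without empty vector replicate 3 or knockout replicate 1. C3, the central component, fell from 375, 359 and 379 TPM to 172, 178 and 198 TPM (-1.02 ± 0.06, adjusted p = 2.57e-05) and the protease C1s1 from 148, 149 and 153 TPM to 110.4, 112 and 111 TPM. MHC class I and antigen processing genes had 10 of 16 higher and 0 lower (7 and 0), Tap1 rising from 14.3, 15.8 and 14.3 TPM to 19.8, 20.7 and 21.5 TPM. Interferon and RNA sensing genes had 12 of 21 higher and 0 lower (7 and 0), and 8 without empty vector replicate 3. Oasl2 stood at 0.223, 0.265 and 0.294 TPM against 3.51, 1.73 and 2.64 TPM (1.50 ± 0.21) and Ifit1 at 1.09, 1.27 and 1.49 TPM against 7.12, 3.20 and 4.09 TPM (1.29 ± 0.24); levels were low, and knockout replicate 1 was the highest in both. Among inflammatory genes 10 of 22 were higher and 4 lower (6 and 6). The chemokine Ccl2 rose from 17.8, 14.9 and 15.4 TPM to 34.0, 35.1 and 31.6 TPM (1.03 ± 0.08), and lipocalin 2 (Lcn2) fell from 18.4, 21.4 and 20.8 TPM to 10.3, 11.3 and 9.90 TPM (-0.89 ± 0.08). Of 17 niche factors for blood cells, 6 were higher, the same share as in all genes, and 4 lower (2 and 5). Vcam1 rose from 263, 256 and 269 TPM to 401, 399 and 415 TPM (0.62 ± 0.03, adjusted p = 2.10e-05). Kitl, the stem cell factor, fell from 71.8, 71.6 and 77.3 TPM to 51.6, 49.4 and 56.7 TPM (-0.48 ± 0.06) and Ptn, pleiotrophin, from 4073, 4045 and 3996 TPM to 3240.3, 3144 and 3225 TPM. Csf1 RNA, whose protein is not functional in this line, rose from 99.6, 94.5 and 101 TPM to 145, 137 and 139.6 TPM.

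Apolipoproteins were called lower more often than higher, and ferroportin and the ferritins were higher. Of 11 prostaglandin and leukotriene enzymes, 1 was called higher and 2 lower (1 and 7 after scaling), with 2 higher without empty vector replicate 1; Ptgs1, cyclooxygenase 1, rose from 22.98, 22.9 and 22.98 TPM to 43.8, 42.0 and 47.1 TPM (0.92 ± 0.05, adjusted p = 2.51e-05), and Ptges fell from 146, 139 and 135 TPM to 120.4, 122 and 125 TPM. Apolipoproteins had 3 of 13 higher and 6 lower (0 and 7), with Apoe at 1.54, 2.16 and 2.03 TPM falling to 0.819, 0.572 and 0.479 TPM (-0.84 ± 0.17). Sphingolipid and phospholipid enzymes had 13 of 25 higher and 2 lower (6 and 7), and 1 lower without empty vector replicate 2 or 3 or knockout replicate 3, with Sptlc1, which starts sphingolipid synthesis, rising from 26.9, 27.0 and 25.9 TPM to 39.8, 40.3 and 39.1 TPM. In iron handling, 7 of 14 were higher and 2 lower (4 and 2), with 1 lower without empty vector replicate 1 or 3 or knockout replicate 1. Slc40a1, the iron exporter ferroportin, rose from 21.3, 20.7 and 22.7 TPM to 63.1, 63.8 and 67.0 TPM (1.54 ± 0.05, adjusted p = 3.98e-06). The iron store genes Fth1 and Ftl1 rose from 9320.2, 9553 and 8794 TPM to 11072, 11668 and 10741 TPM (0.28 ± 0.05) and from 3937, 3904 and 3782 TPM to 4834, 4899 and 4908 TPM (0.33 ± 0.03), but after scaling Fth1 was not called (0.13, adjusted p = 0.0912).

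Lists of energy metabolism had medians between 0.04 and 0.13 on the deposited scale, where all genes had 0.13. Glycolysis had 5 of 20 called higher and 2 lower (2 and 9 after scaling), the citric acid cycle 14 of 26 and 2 (3 and 8), and peroxisomes 9 of 23 and 2 (3 and 4). The share higher of peroxisomes was near the 35.3% of all genes, and that of glycolysis was below it. Glycolysis had 3 higher without knockout replicate 1, and 1 lower without empty vector replicate 1 or 2 or knockout replicate 1 or 2. The citric acid cycle had 1 lower without empty vector replicate 2, and peroxisomes had 1 lower without any library but knockout replicate 3. Pgam1, a glycolytic mutase, rose from 480.1, 452 and 466 TPM to 604, 577 and 567 TPM (0.32 ± 0.04), and Eno2 fell from 3.22, 2.75 and 2.24 TPM to 1.44, 1.24 and 1.66 TPM, a call lost without empty vector replicate 1 (adjusted p = 0.0510). Pdk4, which holds back pyruvate oxidation, rose from 86.8, 83.4 and 90.0 TPM to 143, 135 and 149 TPM (0.71 ± 0.05, adjusted p = 5.63e-05). Hypoxia response genes had 10 of 17 higher and 1 lower (6 and 3), with 2 lower without empty vector replicate 3 or knockout replicate 3. Beside Adm, Anln rose from 4.33, 4.54 and 4.49 TPM to 12.6, 12.4 and 13.7 TPM and Higd1a from 107, 108 and 111 TPM to 188, 171 and 161 TPM, and Ndrg1 fell by 0.43 on the log2 scale. Whether these members changed through hypoxia was not tested. NRF2 and glutathione genes had 12 of 29 higher, a share little above that of all genes, and 2 lower (6 and 10). There was 1 lower when any library but empty vector replicate 2 was left out. Gclc, which limits glutathione synthesis, rose from 10.6, 10.8 and 10.4 TPM to 21.9, 18.8 and 20.4 TPM (0.88 ± 0.06), and Nqo1 fell from 57.4, 54.5 and 54.4 TPM to 44.1, 44.9 and 44.1 TPM (-0.31 ± 0.04). Serine and amino acid supply had 7 of 21 higher, a share near that of all genes, and 3 lower (5 and 4). The arginine transporter Slc7a1 rose from 4.01, 3.99 and 3.74 TPM to 8.19, 8.09 and 9.66 TPM (0.97 ± 0.09). Peroxisomal Abcd2 fell from 5.77, 4.57 and 4.30 TPM to 1.25, 1.14 and 3.74 TPM (-1.04 ± 0.30, adjusted p = 0.0270), and knockout replicate 3 lay nearest to the empty vector; the call was lost when any other library was left out (adjusted p = 0.0522 to 0.0824).

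Regulators of survival, chromatin and body pattern gave further called genes. Of 23 apoptosis regulators, 14 were called higher and 1 lower (12 and 2 after scaling), with 0 lower without empty vector replicate 1 or 2 or knockout replicate 1 or 2: Apaf1, the scaffold of the apoptosome, rose by 0.79 ± 0.08 and the death inhibitor Bcl2 from 1.12, 1.09 and 1.27 TPM to 2.23, 2.32 and 2.47 TPM, so a promoter and an inhibitor of death were both higher. Chromatin regulators had 20 of 37 higher and 0 lower (15 and 1). Histone genes had 11 of 15 higher and 0 lower (5 and 1), with H2az1 rising from 107, 104 and 108 TPM to 165, 167 and 162 TPM. Hox and partner genes had 7 of 22 higher, a share near the 35.3% of all genes, and 0 lower (4 and 2). Pbx3, a Hox cofactor, rose from 9.51, 8.26 and 9.17 TPM to 18.0, 19.1 and 18.7 TPM (0.98 ± 0.07). RNA decay genes had 13 of 26 higher and 0 lower (4 and 1), among them Cnot6, a deadenylase, which rose from 36.0, 36.5 and 38.6 TPM to 56.2, 55.6 and 60.8 TPM (0.62 ± 0.05), and Zfp36, which binds AU-rich elements, from 23.5, 21.7 and 20.8 TPM to 37.0, 37.1 and 33.7 TPM. Of 11 imprinted genes, 5 were higher and 3 lower (2 and 4), with 3 higher without knockout replicate 2: beside H19 and Igf2, Mest fell from 91.0, 87.2 and 89.2 TPM to 59.4, 61.3 and 66.0 TPM (-0.51 ± 0.05) and Plagl1 from 3.38, 3.05 and 3.99 TPM to 1.54, 1.52 and 1.97 TPM. Lipid-related nuclear receptors had 7 of 23 higher, a share below that of all genes, and 5 lower (4 and 8). There were 4 higher without empty vector replicate 3, and 3 lower without empty vector replicate 1 or 3 or knockout replicate 2 or 3. The vitamin D receptor gene Vdr rose from 20.8, 23.4 and 24.3 TPM to 34.4, 33.1 and 36.7 TPM (0.59 ± 0.07).

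Genes often used as references were not level. Of 20 tested, 10 were called higher and 3 lower (4 and 6 after scaling). Hprt stood at 74.7, 70.0 and 72.2 TPM and rose to 114, 106 and 98.2 TPM (0.55 ± 0.06, 0.40 after scaling), and Rplp0 fell from 2736, 2717 and 2533 TPM to 2217, 2169 and 2151 TPM (-0.29 ± 0.04, -0.43 after scaling). The groups were apart in both. Of the remaining lists, IGF binding proteins had 2 of 5 and 0 (1 and 0), and insulin-responsive secreted factors 4 of 17 and 7 (3 and 10).

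**Figure D5:**
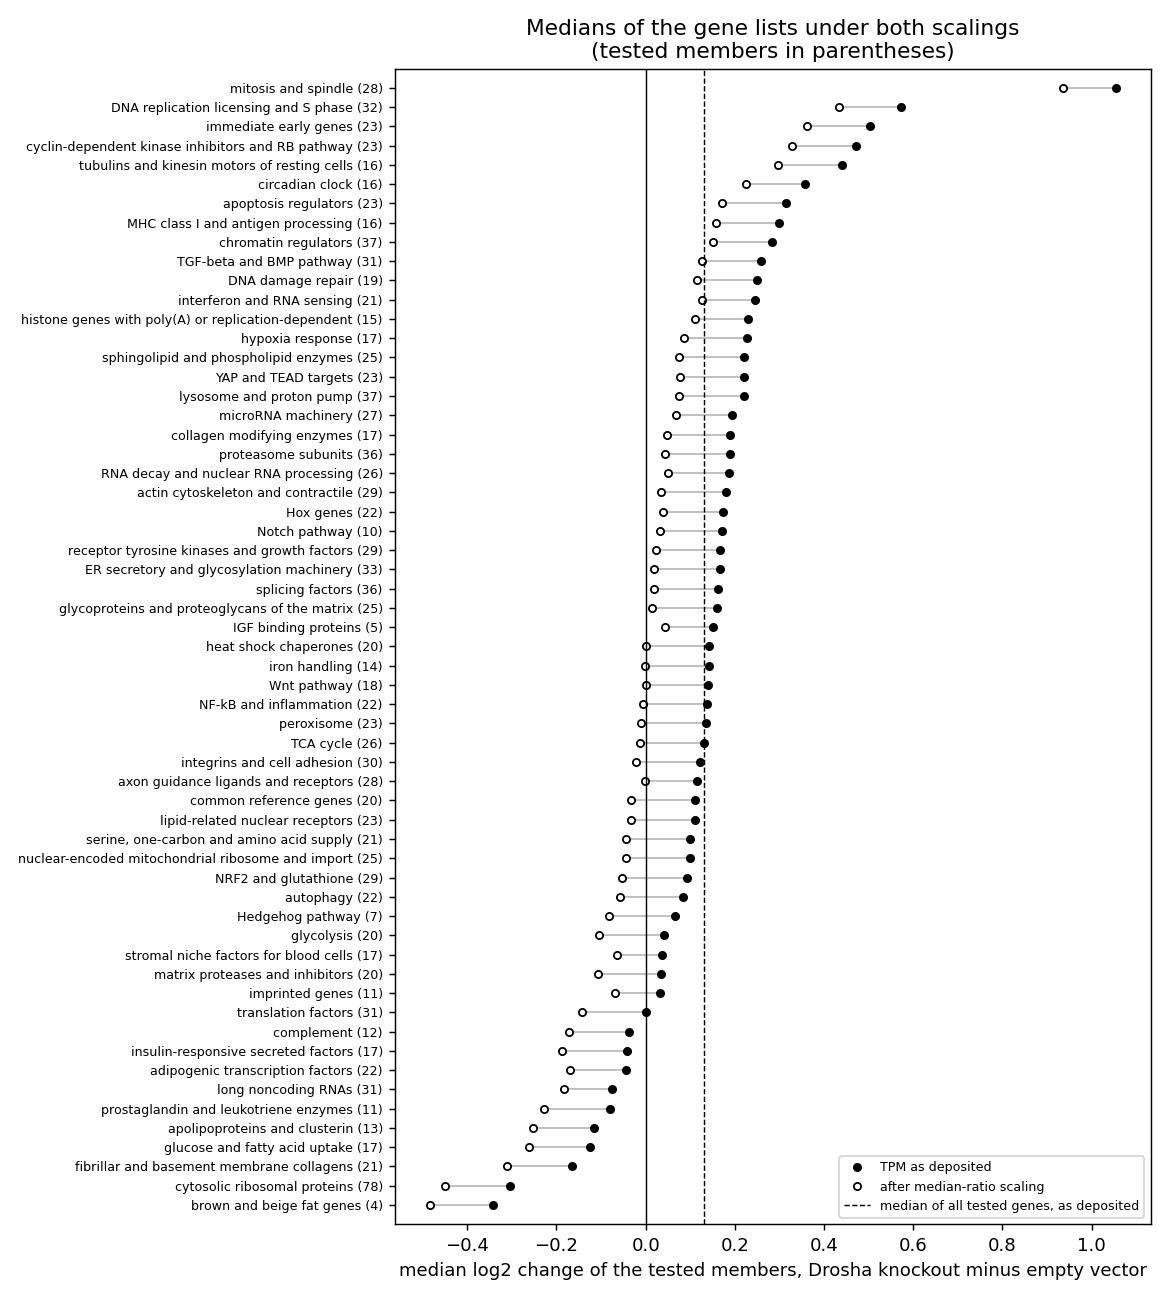
Median log2 change of the tested members of every gene list except cell type markers, with TPM as deposited (filled) and after median-ratio scaling (open), and the median of all tested genes as deposited dashed. Mitosis stands at 1.05 and 0.94, cytosolic ribosomal proteins at -0.30 and -0.45, and lists in the middle cross 0 between the scalings.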

How the data were processed

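The authors deposited TPM per gene, and the submitters' processing notes name kallisto 0.48.0. Trimming, index, annotation and build: not given in the sources used here. The labels name more than 1 extraction kit and sequencer without saying which library had which. Each library's TPM summed to 1000000, so depth is unknown and no counting interval is given. Of 55357 rows, 22369 had no symbol; 20024 of these were named by matching Ensembl IDs to a reference table that held 52081 of the IDs, and 2345 kept their ID. Values sharing a name were summed.

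Genes that reached a TPM of 1 in 3 or more libraries were tested as log2(TPM + 1) with limma 3.58.1 in R 4.3.3 (mean trend, two-sided), after the procedure was checked on simulated data. Alternatives were pseudocounts of 0.1 and 0.5, no filter, quantile normalization, median-ratio scaling, a minimum TPM of 5, no trend, the replicate number as a block, the deposited symbols alone, and leaving out each library.

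The members and the gene lists were chosen with earlier results of these data known. Besides Drosha, the genes named are the 15 that rose and the 15 that fell most. They had to be called under both scalings, have groups apart, reach a mean of 5 TPM in 1 group and bear no gene-model or microRNA name. To these come up to 8 microRNA rows with the largest gain and 8 with the largest loss, the 8 largest gains and losses of TPM, and up to 3 called members each way per list. Hosts, further microRNA rows and members without a call were added after their values were seen. A few genes that the rule selects are not reported here. Seed matches were read from the longest 3′ UTR per gene in GENCODE M21 (GRCm38), which is not necessarily the authors' annotation.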

Additional observations from a re-analysis of the deposited data

How the results depend on the processing

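The balance of the calls depended on the scaling. Median-ratio scaling gave 2297 genes higher and 2083 lower and quantile normalization 2140 and 2194, against 4502 and 945 on the deposited scale. Rescaling without ribosomal protein and ribosomal RNA rows, an alternative chosen after seeing the data, gave 3175 and 1296. The other alternatives stayed within 1.5 times: 3678 and 788 with no filter (27063 genes tested) to 4521 and 963 with the deposited symbols alone. Leaving out each library in turn gave between 3731 and 4092 higher and between 721 and 893 lower; the change of Drosha lay between -1.39 and -1.31 there and between -1.53 and -1.35 under the other alternatives, always called. No pairing by replicate number was visible: the deviations of equally numbered libraries correlated at -0.02, 0.02 and -0.01. With 3 libraries per group this cannot exclude that equally numbered libraries were handled together. With the replicate block 4295 genes were called higher and 893 lower. Of the values reported, none changed direction after being called, but calls were lost. Among genes selected by the naming rule, 18 lost their call under median-ratio scaling, 30 under quantile normalization and 35 with no filter. Leaving out single libraries cost between 19 and 28 of these calls. Depth is not known, and 3 libraries per group limit the precision.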

Other observations

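Classes of genes differed in how often they were called. The classes were not matched for level, and this scale understates changes at few TPM, so whether they differ at equal level was not tested. Of 11274 tested protein-coding genes, 4298 (38.1%) were called higher and 857 (7.60%) lower (2150 and 1944 after scaling). Of 872 long noncoding RNAs 114 (13.1%) were higher and 51 (5.85%) lower (81 and 88), and of 328 pseudogenes 32 (9.76%) and 28 (8.54%) (19 and 38). Of 43 tested snoRNA genes, 6 were higher and 0 lower under both scalings. By chromosome, the median change lay between 0.09 (chromosomes 15, 6 and 1) and 0.20 (chromosome 12) on the deposited scale, and the 20 tested mitochondrial genes had a median of -0.16, with 0 called higher and 1 lower (limma). Rows named as pseudogenes of ribosomal proteins had 0 of 38 called higher and 13 lower under both scalings, and their reads may be shared with the parent genes. Gm10925 rose from 1403, 478 and 1209 TPM to 2190.0, 2729.7 and 2325 TPM (1.36 ± 0.37, limma adjusted p = 0.0206), among the 8 largest gains of TPM, with empty vector replicate 2 well below the others; the call was lost without knockout replicate 2 or 3 (adjusted p = 0.0587 to 0.0608).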
